A study of Mus musculus with 2 samples.

Results

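Solute carriers are the genes whose symbols start with Slc and a digit, and 128 of them could be named on the arrays among 8102 named genes in all. The rule reads the symbol alone, although the group was chosen with earlier results of these data known, and the genes were sorted by family number into classes of substrate. Each gene was read from 1 probe, the one with the highest mean log2 signal where it had several. The study compared 2 samples of mouse total RNA on bead arrays: Mouse ES cells, labelled day 0, and Mouse EB cells, labelled day 4, with 1 array each. ES and EB are not spelled out in the labels, and usually mean embryonic stem cells and embryoid bodies, the cell aggregates in which stem cells differentiate. The labels give no strain, cell line, genotype or culture agent, and culture, array and day cannot be told apart. Without replicates no test was possible, and every difference describes these 2 arrays.

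Solute carriers are membrane proteins that move sugars, amino acids, ions, metals, vitamins and nucleotides across the cell surface or the membranes of organelles. Many of them are driven by the sodium gradient that the sodium pump maintains, others by protons or by exchange of a second solute. In early embryonic cells they feed glycolysis, amino acid dependent growth and the mitochondria, and families differ widely in the tissues that use them.

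Signals are intensities averaged over the beads of a probe and quantile normalized over both arrays. The signal floor of 230.0 corresponds to a deposited detection score of 0.99 in EB. No such score was present for ES, so the same floor was applied to its normalized signals. A gene was counted where at least 1 array reached the floor. Differences are log2 values, EB minus ES, and the error beside them is the bead-level standard error, which holds only the scatter of beads on the same array. Pairs of signals are given with ES first. A gene was counted as higher or lower by the 2-fold size rule at a log2 difference of at least 1, and by the 1.5-fold size rule at 0.585. The median raw signal was 173.9 in ES and 173.3 in EB, and between 21 and 54 beads lay behind each counted solute carrier signal.

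The labels were set against marker genes. Of 7 named pluripotency markers all 7 reached the floor in ES and 4 did in EB, with a summed signal of 37995 in ES and 4194 in EB, and all 4 named markers of early differentiation were higher in EB (summed signal of 994 in ES and 7031 in EB). The 6 named fibroblast markers summed to 3583 in ES and 3818 in EB, and of these Col1a2, Col3a1, Postn and Dcn lay under the floor in both arrays. The other two moved in opposite directions, Col1a1 from 2602 in ES to 1007 in EB and Fbln2 from 365 to 2205. The 4 named blood markers, of which 0 reached the floor in ES and 3 did in EB, summed to 683 and 1896, and the 2 named endoderm markers to 663 and 989. Their part in the differences below was not tested, and in such bulk RNA fewer cells of a type and less RNA per cell cannot be told apart.

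Of the 128 solute carrier genes 53 reached the signal floor, which is 41.4% against 47.7% of all named genes. Among these 53, Slc22a23 and Slc25a10 were higher in EB by the 2-fold rule and Slc12a8 was lower. That is 3.77% higher and 1.89% lower, where 3.72% and 5.35% of all 3867 named genes above the floor were. By the 1.5-fold rule 8 were higher (15.1%, against 12.4% of all) and 8 lower (15.1%, against 12.0%). The median log2 difference was 0.12, with quartiles of -0.32 and 0.34, beside 0.06, -0.26 and 0.35 for all named genes. The shares by the 1.5-fold rule lay near those of all genes, and those by the 2-fold rule rest on 3 genes, so nothing particular to solute carriers is read from them. Differences were positive for 32 of the 53 and for 2139 of all 3867 named genes above the floor. The counts by class and family below hold few genes, and nothing particular to a class is read from them. The signals used here were not background corrected. The authors' series value table has a median of 16.7 in both arrays. For signals above the floor its values were lower by a near-constant amount (Slc12a8 at 502 and 82.6, Slc22a23 at 422 and 1756). Differences of dim genes are therefore larger there, such as -2.39 for Slc12a8 against -1.36. In that table the 2-fold rule gave 6 genes on the higher and 6 on the lower side (11.3% each, against 11.7% and 10.9% of all named genes). The 1.5-fold rule gave 14 and 14 (26.4% each, against 22.7% and 18.6%).

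**Figure D1:**
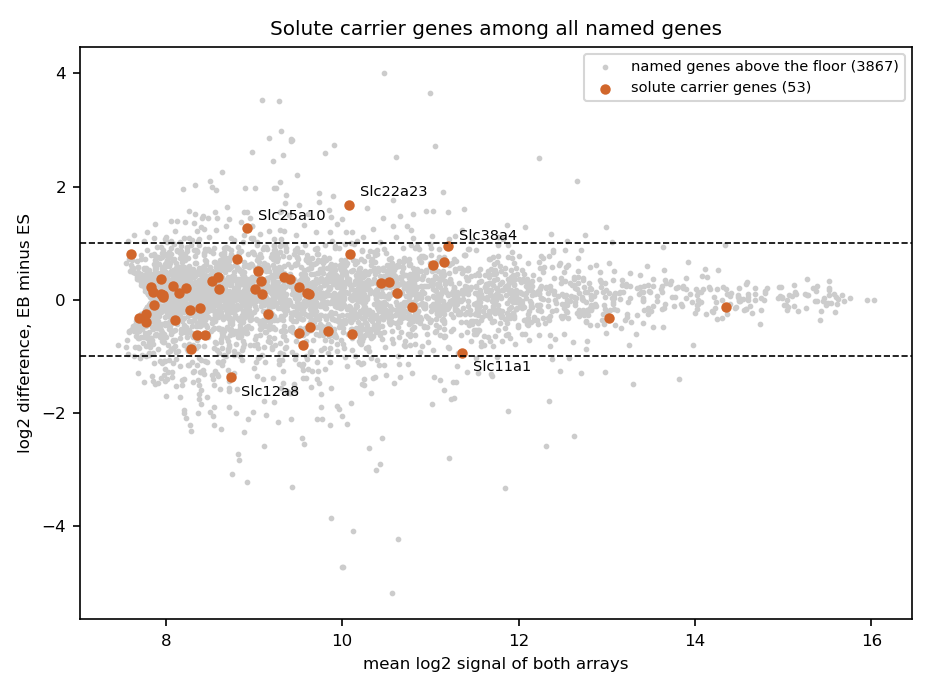
Log2 difference (EB minus ES, 1 array each) against the mean log2 signal of both arrays for 3867 named genes above the floor (grey) and 53 solute carrier genes (orange), with dashed lines at the 2-fold rule. The solute carriers run from -1.36 (Slc12a8) to 1.68 (Slc22a23), inside the range of -5.18 to 4.00 of all genes.

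Slc22a23 belongs to the family of organic cation and anion transporters and has no settled substrate. Its probe (scl073102.1_21-S) read 604 in the ES array and 1939 in the EB array. It was 3.21-fold higher in EB, which is 1.68 on the log2 scale with an error of 0.09. Slc25a10, the dicarboxylate carrier that exchanges malate and succinate for phosphate across the inner mitochondrial membrane, had signals of 314 and 754 on probe scl0027376.2_9-S. It was 2.40-fold higher, with a log2 difference of 1.26 and an error of 0.09. Slc12a8, a member of the family of cation-coupled chloride transporters that has also been described as a carrier of nicotinamide mononucleotide, had signals of 684 and 266 on probe scl00171286.2_214-S. It was 2.57-fold lower, which is -1.36 on the log2 scale with an error of 0.12. Both signals of each of these genes lay above the floor, and each had 1 named probe.

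The promoters of these 3 genes are shown because they mark the genes past the 2-fold rule, each 250 bases before to 50 bases after a start site as RefSeq lists it on build GRCm38.p6. The build behind the array's design was not stated in the files used. Slc22a23 has 1 listed start site (chr13:34345169-34345468, minus strand), Slc25a10 has 1 (chr11:120491587-120491886, plus strand) and Slc12a8 has 3, of which the first is printed (chr16:33517078-33517377, plus strand). Capitals mark the GC box letters GGGCGG and the CCAAT box letters CCAAT on either strand.

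Slc22a23: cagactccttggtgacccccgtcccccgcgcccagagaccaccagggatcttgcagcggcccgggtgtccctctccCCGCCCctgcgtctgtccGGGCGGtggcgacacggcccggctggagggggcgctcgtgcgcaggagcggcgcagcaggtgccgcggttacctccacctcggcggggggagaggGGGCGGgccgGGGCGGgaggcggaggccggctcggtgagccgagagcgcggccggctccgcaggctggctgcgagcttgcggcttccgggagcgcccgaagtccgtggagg

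Slc25a10: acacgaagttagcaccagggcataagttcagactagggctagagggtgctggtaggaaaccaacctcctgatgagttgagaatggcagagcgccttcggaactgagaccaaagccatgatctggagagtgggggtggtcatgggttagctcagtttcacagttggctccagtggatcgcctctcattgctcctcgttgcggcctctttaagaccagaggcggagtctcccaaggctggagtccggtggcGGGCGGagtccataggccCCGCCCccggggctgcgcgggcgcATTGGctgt

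Slc12a8: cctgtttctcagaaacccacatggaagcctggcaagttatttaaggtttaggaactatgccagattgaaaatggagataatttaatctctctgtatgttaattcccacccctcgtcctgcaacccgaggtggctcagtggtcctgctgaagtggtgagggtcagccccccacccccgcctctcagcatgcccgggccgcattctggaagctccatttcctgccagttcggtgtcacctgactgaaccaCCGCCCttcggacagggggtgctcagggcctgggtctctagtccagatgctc

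The Slc22a23 window held 4 GC boxes and 77.3% G and C. The Slc25a10 window held 2 GC boxes and 1 CCAAT box at 59.7% G and C, and the first Slc12a8 window held 1 GC box at 55.3%. The other two windows of Slc12a8 held 0 GC boxes, and the second held 1 CCAAT box. Of all 32851 listed promoters 35.7% held a GC box and 37.4% a CCAAT box, and of those of named genes above the floor 64.3% and 37.7% did. None of the printed windows held the TATA box letters TATAAA or the E-box letters CACGTG. The letters describe the sequence, and no binding was measured.

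**Figure D2:**
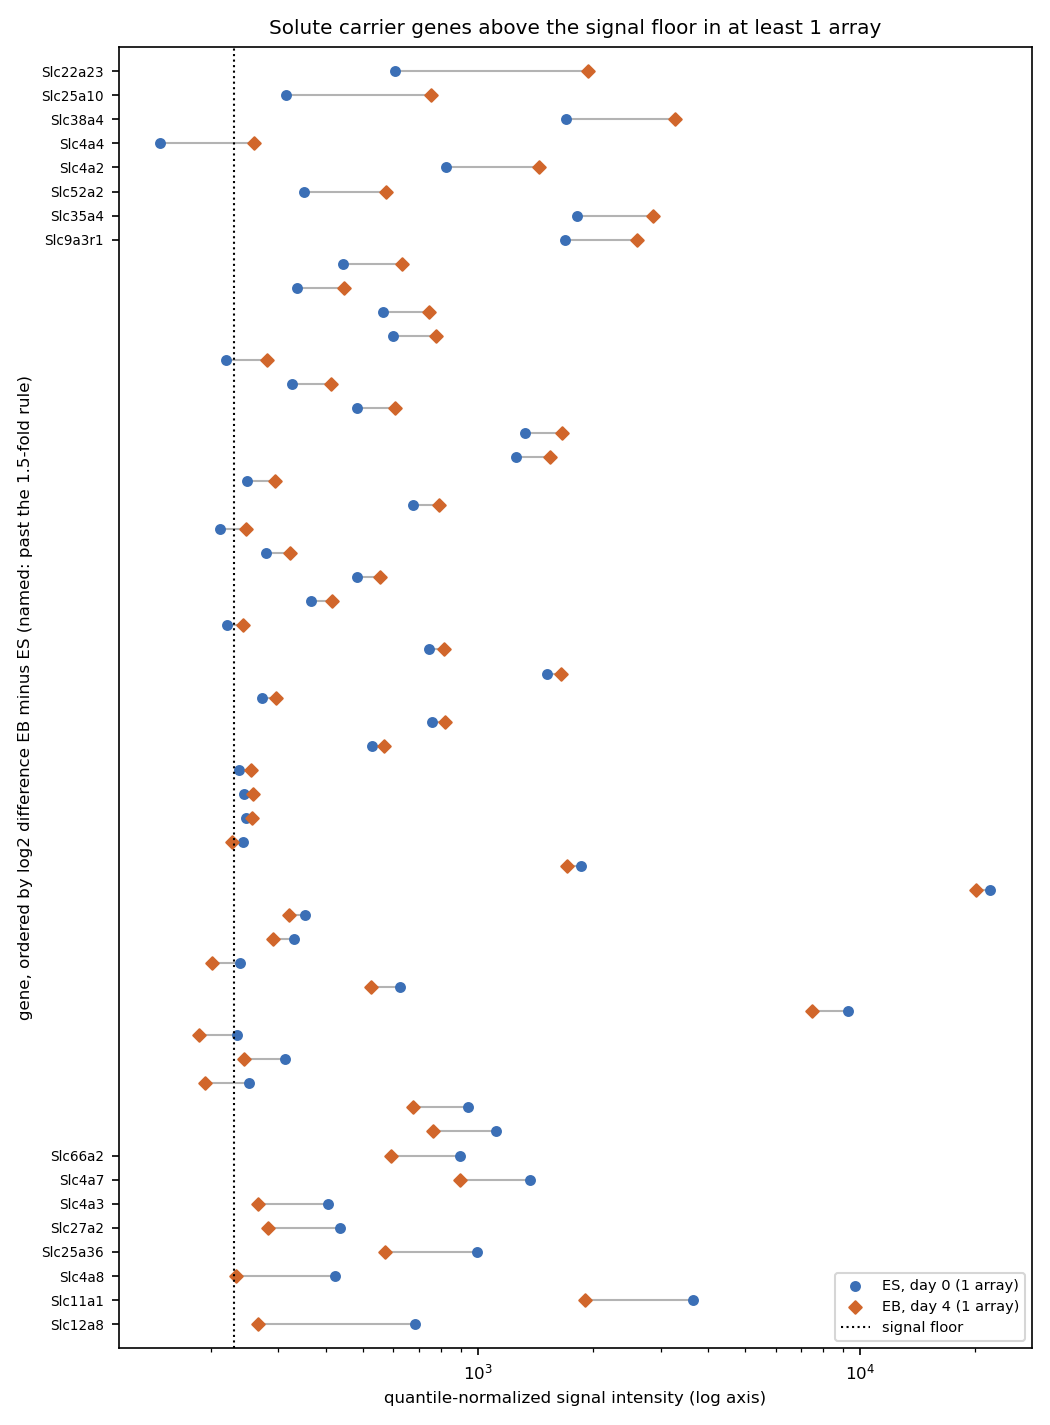
Quantile-normalized signal (log axis) in ES (circles) and EB (diamonds), 1 array each, for the 53 solute carrier genes above the floor (dotted line at 230.0), ordered by log2 difference, with names for those past the 1.5-fold rule. Slc22a23 and Slc25a10 stand at the top, Slc12a8 at the bottom, and 45 genes lie above the floor in both arrays.

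Among transporters of amino acids and peptides, 4 of the 19 genes named here reached the floor (21.1%, against 47.7% of all named genes). Slc1a5, Slc3a2, Slc7a3, Slc7a5 and Slc38a2 carry no name here and were not analysed, so the class is covered in part only. Slc38a4, a sodium-coupled transporter of neutral amino acids that is paternally expressed in the mouse, had signals of 1698 and 3272, a log2 difference of 0.95 with an error of 0.09. It lay just under the 2-fold rule at 1.93-fold. Its further probe gave a log2 difference of 0.87, so both probes showed a higher signal in EB. The other 3 were under the 1.5-fold rule: Slc38a9, a lysosomal protein that senses arginine, differed by 0.08 with an error of 0.15, Slc6a9, a glycine transporter, by -0.14, and Slc7a4 by -0.35. Neither Slc7a1, a transporter of cationic amino acids, nor Slc7a11, the light subunit of the cystine and glutamate exchanger, reached the floor in either array. The same held for the glutamate transporters Slc1a1 and Slc1a2 and, among others, for Slc15a1, Slc36a4, Slc38a3, Slc38a11, Slc6a7, Slc6a14, Slc6a15, Slc6a18, Slc7a2 and Slc7a14. A signal under the floor shows that these probes did not reach this limit, not that the transcript was missing. Slc36a4 lay just under it in EB at 229.4. With the floor at a detection score of 0.95, 69 solute carrier genes reached it instead of 53.

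The bicarbonate transporters of family 4 stood on both sides. These proteins set the acidity of the cell by moving bicarbonate with sodium or against chloride. All 5 named members reached the floor and passed the 1.5-fold rule, 2 higher and 3 lower, where 24.4% of all named genes above the floor passed it in either direction. The family was singled out after its values were seen. Slc4a2, an exchanger of chloride and bicarbonate, had signals of 823 and 1445 and was 1.76-fold higher. Slc4a4, a sodium and bicarbonate cotransporter, had signals of 147 and 259 and was at least 1.13-fold higher, because its ES signal lay under the floor. Slc4a7, another sodium and bicarbonate cotransporter, had signals of 1363 and 893 and was 1.53-fold lower.

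Slc4a8, the sodium-driven exchanger of chloride and bicarbonate, had signals of 423 and 232, the latter just over the floor, and was 1.82-fold lower. Slc4a3, a chloride and bicarbonate exchanger, had signals of 405 and 264 and was 1.53-fold lower. The family's calls differ in firmness. The further probes of Slc4a3 and Slc4a4 lay under the floor in both arrays, and with the probe of lowest bead error the difference of Slc4a4 turned to -0.18 and that of Slc4a3 was -0.12. With signals set to the floor Slc4a4 differed by 0.17, and without normalization between the arrays Slc4a7 differed by -0.578, under the limit of 0.585 that the 1.5-fold rule sets.

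Of the 23 genes for inorganic ions 7 reached the floor, among them these 5 and Slc12a8. Under the floor in both arrays were 8 sodium/proton exchangers and relatives (among them Slc9a2, Slc9a3, Slc9a4, Slc9a8, Slc9a9, Slc9b1 and Slc9c1), the calcium exchangers Slc8a1, Slc8a3, Slc24a2 and Slc24a4, and Slc12a3, Slc26a7, Slc26a9 and Slc34a1. Slc9a3r1 carries the family's symbol but encodes a scaffold that binds such exchangers. It had signals of 1690 and 2596 and was 1.54-fold higher, and it is counted among the 8 higher genes. Slc7a6os, named for the opposite strand of a transporter gene and likewise no carrier, differed by -0.12. Without these 2 genes the 1.5-fold rule left 7 of 51 on the higher side and 8 on the lower.

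**Figure D3:**
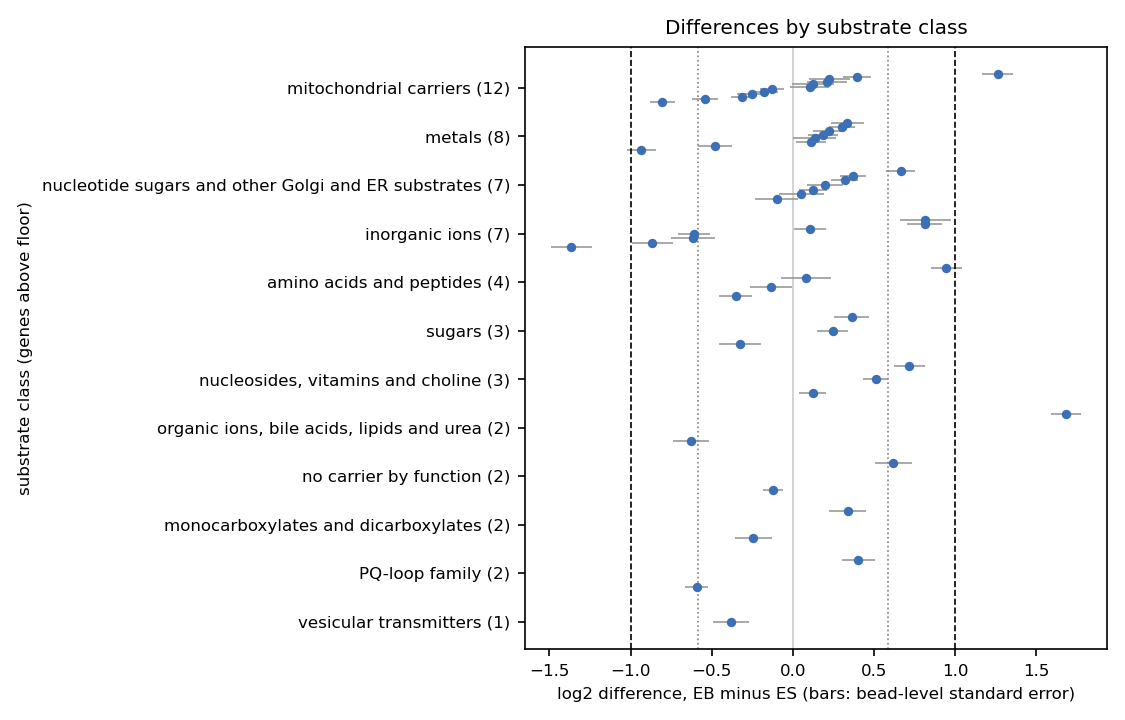
Log2 difference (EB minus ES, 1 array each) of each above-floor solute carrier gene by substrate class, with bars for the bead-level standard error, dashed lines at the 2-fold and dotted lines at the 1.5-fold rule. Outside the dotted lines lie 6 of 7 genes of the inorganic ion class and 2 of 12 mitochondrial carriers, where 24.4% of all named genes above the floor do. The 6 include Slc4a4, whose ES signal lay under the floor. With so few genes nothing particular to a class is read from these counts.

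The carriers of the inner mitochondrial membrane, family 25, were represented by 19 genes, of which 12 reached the floor (63.2%, against 47.7% of all named genes). All 12 did so in both arrays, with 6 positive and 6 negative differences and a median of -0.01. Slc25a10 was the one past the 2-fold rule. Slc25a36, a carrier of pyrimidine nucleotides, had signals of 995 and 569 and was 1.75-fold lower, which is -0.81 on the log2 scale with an error of 0.08. The other 10 lay under the 1.5-fold rule.

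Slc25a5, an exchanger of ADP and ATP, had signals of 21903 and 20029 and differed by -0.13 with an error of 0.07. Slc25a39, which is needed for glutathione import into mitochondria, had signals of 9307 and 7476 and differed by -0.32 with an error of 0.06. Slc25a26, the carrier of S-adenosylmethionine, differed by -0.25. Slc25a22, a glutamate carrier, differed by 0.23 and Slc25a44, a carrier of branched-chain amino acids, by 0.40. Slc25a30 differed by -0.18 and Slc25a27 by 0.21. Slc25a31, Slc25a35, Slc25a40, Slc25a42, Slc25a45, Slc25a46 and Slc25a51 lay under the floor in both arrays.

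Metal transporters had 8 of 14 genes above the floor (57.1%, against 47.7% of all named genes). Their median difference was 0.16, beside 0.06 for all named genes above the floor. Slc11a1, which pumps divalent metals out of the phagosome of macrophages, had signals of 3638 and 1904, a log2 difference of -0.93 with an error of 0.09, or 1.91-fold lower. This rests on 1 of its 3 probes. The others had signals of 182 and 177, and of 174 and 192, all under the floor, and the mean over the 3 probes was -0.28. Which of these probes follows the transcript was not tested.

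Zinc importers of family 39 had 5 of 7 genes above the floor and 0 past the 1.5-fold rule. Slc39a1 had signals of 1252 and 1544, a difference of 0.30 with an error of 0.08, and Slc39a10 differed by 0.33, Slc39a9 by 0.22, Slc39a3 by 0.14 and Slc39a11 by -0.48. Slc39a3 and Slc39a9 reached the floor in EB only. Of the zinc exporters of family 30 Slc30a6 differed by 0.11 and Slc30a3, which fills synaptic vesicles with zinc, by 0.18, both under the 1.5-fold rule. The further probe of Slc30a3 lay under the floor in both arrays. Slc30a8, Slc30a9, Slc31a2, Slc39a8, Slc39a14 and Slc41a1 did not reach the floor.

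The class of nucleotide sugars, used for glycosylation, and other Golgi and endoplasmic reticulum substrates had 7 of 11 genes above the floor. That is 63.6%, against 47.7% of all named genes. These 7 gave 6 positive differences and a median of 0.20. Of all 3867 named genes above the floor 2139 were positive, with a median of 0.06. With so few genes nothing particular to the class is read from these counts. Slc35a4, a member of the nucleotide sugar family, had signals of 1808 and 2869 and was 1.59-fold higher, with a difference of 0.67 and an error of 0.09. The remaining 6 were under the 1.5-fold rule, up to 0.37 for Slc35c2. Slc35a3, a carrier of UDP-N-acetylglucosamine, had signals of 242 and 226, the latter under the floor, so its difference of -0.10 is not measured on both sides. Slc35e3 had signals of 1325 and 1654. Slc33a1, Slc35a5, Slc35f5 and Slc37a4 were under the floor.

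Of 7 transporters of nucleosides, vitamins and choline 3 reached the floor (42.9%, against 47.7% of all named genes), and all 3 differences were positive. Among all 3867 named genes above the floor 2139 were positive, and nothing particular to the class is read from 3 genes. Slc52a2, a riboflavin transporter, had signals of 349 and 575 and was 1.65-fold higher, with a difference of 0.72 and an error of 0.09. Slc19a1, the reduced folate carrier, differed by 0.51, and Slc44a2, a choline transporter-like protein, by 0.12. A further probe of Slc44a2 was under the floor, and the mean over its probes was -0.04. Slc19a3, Slc23a3, Slc28a2 and Slc44a1 were under the floor.

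Genes of the sugar class, which was set by family number and not by each member's own substrate, were mostly under the floor. Of 10 genes in this class 3 reached it, with no gene past the 1.5-fold rule. Slc2a8, an intracellular glucose transporter, had signals of 248 and 294, both just over the floor, and differed by 0.24 with an error of 0.10. Slc45a4 reached the floor in EB only and was at least 1.22-fold higher there. Slc5a5, which carries iodide although its family is named for glucose, reached the floor in ES only and was at least 1.01-fold lower in EB. Their differences of 0.36 and -0.32 are not measured on both sides. Not above it were the fructose transporter Slc2a5, Slc2a13, Slc5a1, Slc5a2, Slc5a3, Slc5a8 and Slc5a9. Slc2a1 and Slc2a3, the main glucose transporters of many cell types, carry no name here and were not analysed.

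Few genes of the remaining classes were measurable. Slc27a2, a fatty acid transport protein that activates very long chain fatty acids, had signals of 435 and 281 and was 1.54-fold lower. It and Slc22a23 were the 2 of 12 genes for organic ions, bile acids, lipids and urea above the floor, and the 10 below it were Slc10a1, Slc10a4, Slc14a1, Slc14a2, Slc22a6, Slc22a13, Slc22a20, Slc22a26, Slc22a29 and Slc22a30, many of them known from liver and kidney. Slc66a2, a PQ-loop protein, had signals of 894 and 592 and was 1.51-fold lower, while Slc66a1, a lysosomal exporter of cationic amino acids, differed by 0.40. Of 4 monocarboxylate transporters Slc16a6 differed by 0.34 and Slc16a10, an aromatic amino acid transporter, by -0.24 with an EB signal under the floor, and Slc16a7 and Slc16a14 were under it. Of 5 genes classed as vesicular transporters by family number, not by each member's own substrate, Slc18b1, a carrier of polyamines, reached the floor in ES alone. It was at least 1.09-fold lower in EB. Slc17a2, Slc17a7, Slc17a9 and Slc18a2 did not reach the floor.

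Further probes bear on how far a single probe can be read. Of 21 solute carrier genes with several probes 10 were above the floor, and of their 11 further probes 1 was, that of Slc38a4. For the other 9 genes the value rests on 1 probe while the rest lay under the floor.

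**Figure D4:**
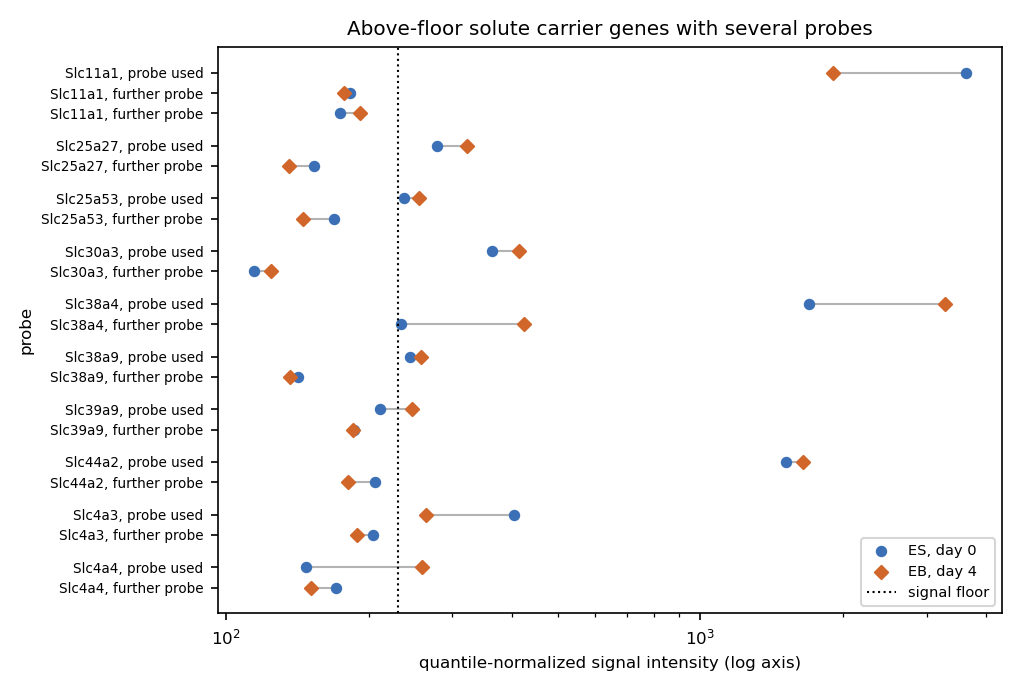
Quantile-normalized signal (log axis) in ES (circles) and EB (diamonds), 1 array each, for every probe of the 10 above-floor solute carrier genes that have several, with a dotted line at the floor. The further probe of Slc38a4 lies above the floor and the other 10 further probes lie under it in both arrays.

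Genes that drive, escort or use solute carriers were read from lists that were chosen with earlier results of these data known. Among 5 measured chaperones, scaffolds and regulating kinases or ligases, 1 was higher and 2 lower by the 2-fold rule, where 3.72% and 5.35% of all named genes were. With so few genes nothing particular to a list is read from its counts. Emb, which encodes embigin, a partner that brings monocarboxylate transporters to the cell surface, had signals of 3134 and 13350 and was 4.26-fold higher, with a log2 difference of 2.09 and an error of 0.08. Sgk1, a kinase that raises the surface level of many transporters, had signals of 8806 and 3664 and was 2.40-fold lower. Nedd4l, a ubiquitin ligase that removes transporters and channels from the surface, was 2.14-fold lower (1231 and 574), and Wnk1, a kinase that regulates cation-chloride cotransporters, was 1.52-fold lower. Nptn differed by -0.17.

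The sodium pump supplies the gradient for sodium-coupled carriers. Its beta subunit gene Atp1b1, the 1 of 4 named pump genes above the floor, had signals of 2000 and 430 and was 4.65-fold lower, which is -2.22 on the log2 scale with an error of 0.10. All 8 measured subunits of the vacuolar proton pump lay under the 1.5-fold rule, from -0.20 for Atp6v1a to 0.46 for Atp6v0a2. So did the 4 measured mitochondrial channel and carrier genes without an Slc symbol, from -0.16 for Mtch2 to 0.54 for Mpc2, a subunit of the pyruvate carrier, whose further probe gave 0.48.

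Other transporter families were thinly covered. Of 19 ABC transporters, which are driven by ATP, 4 reached the floor. Abcb6, a transporter linked to porphyrins, was 2.91-fold higher (signals of 369 and 1076), Abcb8 was 1.53-fold higher and Abcg1, an exporter of sterols, 1.81-fold lower, while Abcd3 differed by 0.14. Of 5 organic anion transporters of the Slco group Slco3a1 was at least 1.41-fold higher, and both of its probes reached the floor in EB only.

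Of 11 measured genes that handle carried substrates 1 was higher and 1 lower by the 2-fold rule (9.09% each, against the same 3.72% and 5.35%). Fth1, the ferritin heavy chain that stores iron, was 2.44-fold higher (signals of 5211 and 12702), and Mt1, a metallothionein that binds zinc, 2.63-fold lower (23434 and 8908). Ldhb, a lactate dehydrogenase subunit, was 1.76-fold lower, and Ldha differed by 0.21. Of 5 genes of the amino acid response Eif4ebp1, a translation repressor, was 1.75-fold lower, with its further probe under the floor, and Vldlr, a lipoprotein receptor, was 6.62-fold higher. Phgdh, the first enzyme of serine synthesis, differed by -0.48.

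**Figure D5:**
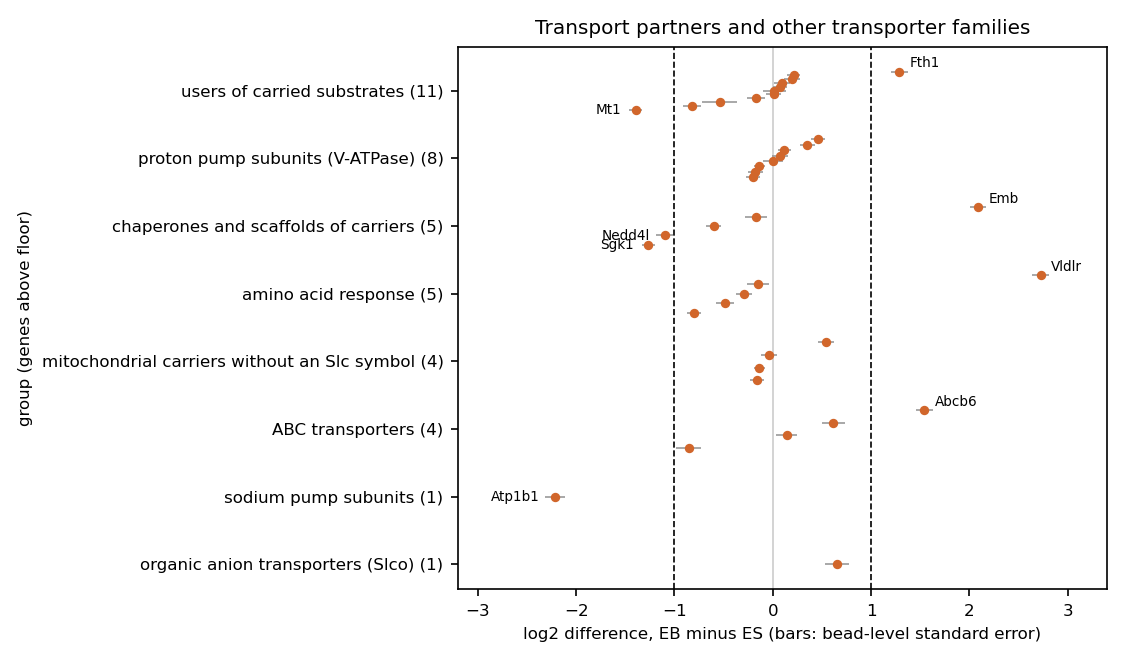
Log2 difference (EB minus ES, 1 array each) of above-floor genes in 8 lists of transport partners and other transporter families, with bars for the bead-level standard error and dashed lines at the 2-fold rule. Emb (2.09), Vldlr (2.73), Abcb6 (1.54) and Fth1 (1.29) lie to the right of the lines and Atp1b1 (-2.22), Mt1 (-1.40), Sgk1 (-1.26) and Nedd4l (-1.10) to the left.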

How the data were processed

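Total RNA of 1 ES and 1 EB sample was hybridised to 1 bead array each. The deposited signal intensity is the mean over a probe's beads, exported per the file headers by BeadStudio 2.3.41 with normalization set to none. The deposited spread between beads was taken as a standard error of the signal, because relative to the signal it fell with the number of beads at a log-log slope of -0.44 in ES and -0.47 in EB (probes of at least 1000), near the -0.5 of a standard error. The deposited detection score, a fraction from 0 to 1, was present for EB only. The submitters' processing notes also name RMA and limma, without a role. How the authors made the series value table, also linear intensity, is not stated. It was used as an alternative on log2(value + 16).

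Zero-padded numbers of at least 10000 in the probes' target names were taken for NCBI Gene numbers, and 9796 of 11857 such probes (82.6%) matched RefSeq symbols of GRCm38.p6. Raw intensities were quantile normalized without background correction (Python 3.11.15, numpy 2.4.6). The step was checked on simulated data with changes set in bright probes only, so that check does not cover dim signals. limma 3.58.1 in R 4.3.3 gave the normexp alternative, with an offset of 50. With 1 array per group no model was fitted and the number of arrays limits the precision. Members and lists were chosen with earlier results of these data known. The text names every member past the 1.5-fold rule, the 10 with the highest mean signals, the highest of each class and 14 preset members, of which 3 are among the named genes. Most other members are given with their class, and a few are not reported here.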

Additional observations from a re-analysis of the deposited data

Results flagged for a closer look

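The probe of Slc38a4 that was not used for the comparison carried signal above the floor, with 233.4 in ES and 425.4 in EB. It was the 1 of 24 further solute carrier probes to do so.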

How the results depend on the processing

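Of the 16 genes past the 1.5-fold rule 11 kept their direction and their side of the rule they had passed under all 11 other settings. The exceptions were Slc4a3, Slc4a4 and Slc11a1, which depend on the probe or on dim signals, and Slc4a7 and Slc66a2. Slc4a4 turned to -0.18 (-0.1755) with the probe of lowest bead error, which is another probe, under the floor in both arrays. Slc66a2 was at -0.584 without normalization and at -0.579 with median scaling, and Slc4a7 at -0.578 and -0.573, just under the limit of 0.585. The series value table gave 6 higher and 6 lower genes by the 2-fold rule (11.3% each, against 11.7% and 10.9% of all named genes), 14 and 14 by the 1.5-fold rule, and a median of 0.23 (0.2333). Past the 1.5-fold rule were then 52.8% of the solute carriers and 41.2% of all named genes. Normexp background correction gave 2 lower genes by the 2-fold rule, because Slc4a8 then lay at -1.08, and 3 higher, because Slc4a4 lay at 1.20. The cause was otherwise not tested. No paired analysis was possible because there is 1 sample per group, and leaving out an array would end the comparison. Signals near the floor limit the differences of dim probes. The count without the genes that are no carriers was chosen after seeing the data.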

Other observations

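Promoter windows were listed for 41 of the 53 solute carrier genes above the floor and for 54 of the 75 under it. Of the 60 windows of the first set 65.0% held a GC box (GGGCGG) and 43.3% a CCAAT box, against 64.3% and 37.7% of the windows of all named genes above the floor. Of the 62 windows of the second set 31 held a GC box and 19 a CCAAT box. The TATA box letters TATAAA stood in 6.7% of the first and 12.9% of the second set (4 and 8 windows). Of all named genes above the floor 6.9% of windows held them, and of all listed promoters 13.6%. The E-box letters CACGTG stood in 5.0% and 16.1% (3 and 10 windows), against 9.6% and 7.2%. With so few windows nothing particular to solute carriers is read from these shares. Each start site of a gene counts as its own window, and whether windows of a gene share sequence was not tested. These shares are a description of the letters.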
